A study of Homo sapiens with 9 samples.

Results

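The messenger RNAs of 10 genes for desmosomes and the cornified envelope were followed in SKOV-3 cells grown on gels of 3 stiffnesses. The genes were DSG2, DSC2, JUP, PKP2, PKP3, DSP, PPL, EVPL, PERP and TUFT1. They were picked by gene symbol, and each matched 1 row of the 36343 genes in the count and FPKM tables. They had been chosen with the differences between gels in these same libraries already known, from the gene counts of all 3 comparisons. Their levels, differences and calls from the fit over all genes are therefore given as a description, and no p-value of these 10 genes is used as support. All 10 were among the 16335 genes that passed the filter on low counts.

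Desmosomes are cell-cell junctions that tie the keratin filaments of neighbouring epithelial cells together. Cadherins of the desmoglein and desmocollin families span the gap, plakoglobin and plakophilins bind their tails, and desmoplakin links these to keratin. The cornified envelope is the cross-linked protein shell of the outermost skin cells, and envoplakin and periplakin are among its early scaffold proteins. Tuftelin, the product of TUFT1, was first described in the enamel matrix of teeth and is also made in many soft tissues.

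SKOV-3 is an established human epithelial ovarian cancer line. After 3 days of culture on hydrogels with a stiffness of 0.5, 4 or 25 kPa, 3 poly(A) RNA libraries were sequenced for each gel, which gave 9 libraries. The study asked how the stiffness under the cells alters their growth, phenotype and drug response. No treatment other than the gel separated the groups. Whether replicate libraries were grown as separate cultures is not stated in the labels, so every test below measures only the spread between these libraries, which may be technical.

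Each library held between 19609740 and 21033433 counts, a narrow range of depth. Mitochondrial genes took 5.21 to 5.74% of the counts on 0.5 kPa, 3.99 to 4.41% on 4 kPa and 4.15 to 4.6% on 25 kPa. Replicate 3 of 0.5 kPa and replicate 3 of 4 kPa stood apart from the other libraries of their gels. Their count differences were 13.1 to 24.5 times the sampling variance, against 3.08 to 3.20 for the other pairs of these gels. On 25 kPa replicate 2 differed most, at 11.9 from replicate 3 and 6.35 from replicate 4, against 3.79 between replicates 3 and 4. Of 10 markers of epithelial ovarian carcinoma all 10 were tested. In the gel means ERBB2 stood at 3021 to 4088 CPM and PAX8 at 190 to 224 CPM. MUC16 stayed at 0.479 to 0.748 CPM, WT1 at 0.930 to 1.22 CPM and MSLN at 5.95 to 6.53 CPM. Of these 10 markers 1 was called higher, 2 were called lower and 7 were not called on 0.5 kPa against 25 kPa. CPM are read counts scaled to library size after TMM, which corrects for library composition. Of 4 tested markers of MCF-7 breast cancer cells 3 rose on 0.5 kPa against 25 kPa, with summed levels of 308 to 336 CPM on 0.5 kPa, 245 to 274 CPM on 4 kPa and 216 to 234 CPM on 25 kPa. TFF1 and GATA3, further markers of those cells, had no counts on 4 and 25 kPa and at most 5 in a library on 0.5 kPa. The 5 leukocyte markers summed to at most 0.681 CPM in any library. The 6 fibroblast markers summed to 56.5 to 67.2 CPM on 0.5 kPa, 58.8 to 64.3 CPM on 4 kPa and 54.2 to 58.3 CPM on 25 kPa, with 2 called higher and 1 lower on 0.5 kPa against 25 kPa.

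Promoter windows were read for the genes listed in the RefSeq table of build GRCh38.p14, from 250 bases before to 50 bases after a start site. DSG2, DSC2, JUP, DSP, PERP and TUFT1 had 8 such windows, and PKP2, PKP3, PPL and EVPL had no entry. The window of TUFT1 is shown because this gene differed most between gels, and that of DSC2 because its mRNA ran opposite to TUFT1. That of DSP is shown because it was more abundant than PPL and EVPL, the other plakins among the genes followed. Capitals mark CAGGTG on the printed strand, the E-box letters bound by the SNAI and ZEB repressors of junction genes. The TUFT1 window lies at chr1:151540059-151540358 and the DSP window at chr6:7541421-7541720, both on the plus strand. The DSC2 window shown, the nearer to the gene start, lies at chr18:31102372-31102671 on the minus strand. A further DSC2 window, at chr18:31101211-31101510, is not shown and did not hold CAGGTG.

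TUFT1: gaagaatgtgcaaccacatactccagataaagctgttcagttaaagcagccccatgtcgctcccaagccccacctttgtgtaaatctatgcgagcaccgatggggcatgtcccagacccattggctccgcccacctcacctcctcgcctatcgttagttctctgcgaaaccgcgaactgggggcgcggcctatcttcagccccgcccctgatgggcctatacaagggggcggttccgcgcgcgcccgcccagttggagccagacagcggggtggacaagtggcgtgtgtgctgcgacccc

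DSP: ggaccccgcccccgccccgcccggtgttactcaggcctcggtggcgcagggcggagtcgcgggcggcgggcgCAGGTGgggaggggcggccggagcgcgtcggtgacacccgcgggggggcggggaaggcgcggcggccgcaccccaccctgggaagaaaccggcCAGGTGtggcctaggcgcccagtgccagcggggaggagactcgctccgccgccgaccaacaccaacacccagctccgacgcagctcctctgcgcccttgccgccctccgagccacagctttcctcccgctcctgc

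DSC2: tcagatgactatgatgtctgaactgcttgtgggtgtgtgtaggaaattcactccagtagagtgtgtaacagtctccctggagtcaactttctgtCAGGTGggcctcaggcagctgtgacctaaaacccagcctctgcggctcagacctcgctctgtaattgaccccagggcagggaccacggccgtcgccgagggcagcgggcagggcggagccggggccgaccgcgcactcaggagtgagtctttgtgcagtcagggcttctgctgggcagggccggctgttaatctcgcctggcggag

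CAGGTG was searched on both strands and stood in windows of 4 of the 6 genes, namely DSG2, DSC2, JUP and DSP, or in 4 of the 8 windows. Among 35114 promoters of the same length 20.6% held it. GGAATG, the TEAD letters, stood in 0 of the 8 windows and in 14% of all promoters. TGANTCA, the AP-1 letters, stood only in the window of PERP and in 7.71% of all promoters. TATAAA stood in 0 of the 8 windows and in 11.5% of all promoters. The TUFT1 window held none of these motifs, and 61.3% of its bases were G or C. These matches describe letters and not binding.

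The 10 mRNAs covered a wide range of abundance, read from the deposited FPKM, which divides counts by gene length and depth. On 0.5 kPa the order was DSP at 54.7 ± 4.4 FPKM (SD, n = 3), PERP at 49.4 ± 2.8, DSG2 at 37.7 ± 3.1, JUP at 22.5 ± 1.3 and PKP3 at 13.4 ± 1.2. PKP2 at 9.30 ± 0.66, TUFT1 at 5.94 ± 0.50, PPL at 5.56 ± 0.43, DSC2 at 0.81 ± 0.08 and EVPL at 0.096 ± 0.029 FPKM followed. The libraries of DSP and PERP overlapped on all 3 gels, so the order of these leading genes was not fixed by the data. TUFT1 changed place in this order. On 0.5 kPa its libraries overlapped those of PPL and lay below those of PKP2, whereas on 4 and 25 kPa, at 12.8 ± 0.9 and 11.6 ± 0.5 FPKM, they lay above those of PKP2, at 10.4 ± 1.1 and 10.2 ± 0.4 FPKM. The ratio of TUFT1 to PKP2 FPKM within a library averaged 0.643 ± 0.094 on 0.5 kPa, 1.24 ± 0.20 on 4 kPa and 1.14 ± 0.03 on 25 kPa.

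**Figure D1:**
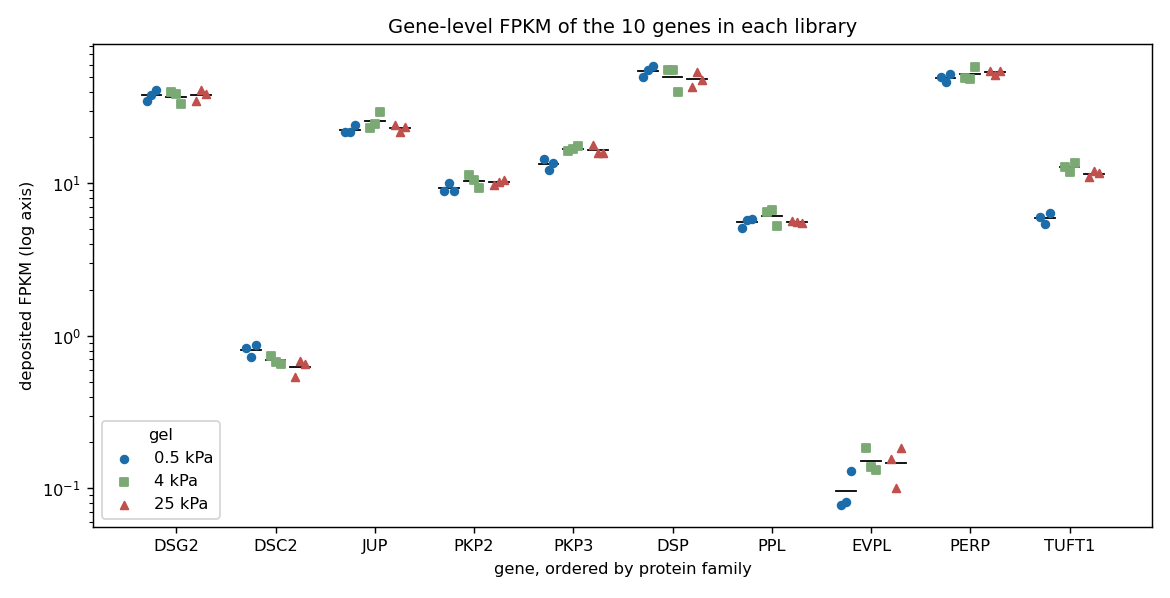
Deposited gene-level FPKM (log axis) of the 10 genes, ordered by protein family, in each of the 9 libraries; blue circles are 0.5 kPa, green squares 4 kPa and red triangles 25 kPa, and the black line is the mean of 3 libraries. The TUFT1 points of 0.5 kPa, with a mean of 5.94 FPKM, lie below those of 4 and 25 kPa, with means of 12.8 and 11.6 FPKM.

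Between 0.5 and 25 kPa, 2 of the 10 genes were called at an adjusted p under 0.05, TUFT1 and PKP3, both lower on 0.5 kPa, and 8 were not called. Over all tested genes 6.69% were called. Between 0.5 and 4 kPa only TUFT1 was called, lower on 0.5 kPa, beside 2.05% of all genes. Between 4 and 25 kPa 0 of the 10 were called in edgeR or in DESeq2, beside 0.9% of all genes, and all 10 unadjusted intervals spanned 0. Because the genes were selected on these contrasts, nothing is read from the counts. The median log2 difference of the 10 genes was -0.12 for 0.5 against 25 kPa, -0.14 for 0.5 against 4 kPa and -0.0020 for 4 against 25 kPa, beside medians over all genes of -7.3e-06, 0.0080 and -0.0075. Of the 10 genes 5 had libraries that did not overlap between 0.5 and 25 kPa, beside 30.3% of all genes. That number was 3 for 0.5 against 4 kPa, beside 18.4%, and 0 for 4 against 25 kPa, beside 20.1%. The comparisons share libraries and are not independent of each other. In bulk RNA, fewer cells with a transcript and less of it per cell cannot be told apart.

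**Figure D2:**
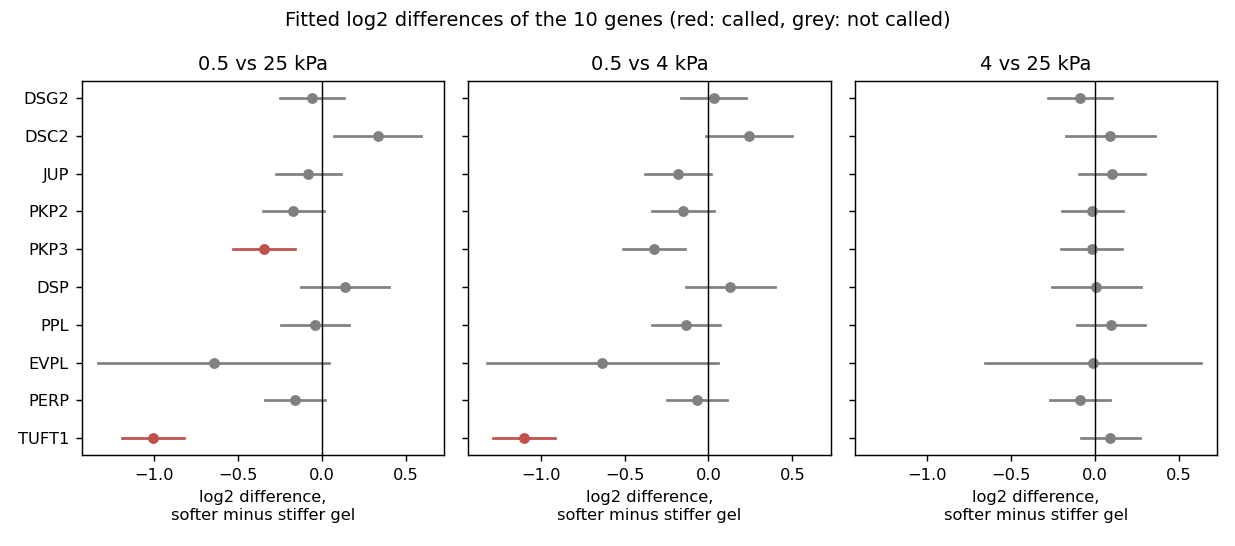
Fitted log2 differences of the 10 genes, softer minus stiffer gel, for 0.5 against 25 kPa, 0.5 against 4 kPa and 4 against 25 kPa; bars are 95% intervals, not adjusted for the number of genes, red marks called genes and grey the others. TUFT1 lies near -1.0 in both comparisons with 0.5 kPa and at 0.09 between 4 and 25 kPa, while EVPL has the widest bars.

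The cadherins span the membrane and bind their partners on the next cell. DSG2, the desmoglein of simple epithelia, had 213, 234 and 249 CPM on 0.5 kPa, 242, 238 and 202 CPM on 4 kPa, and 224, 257 and 244 CPM on 25 kPa. Its libraries overlapped in every comparison. The log2 difference of 0.5 against 25 kPa was -0.06 ± 0.09 (SE), with a 95% interval from -0.25 to 0.13. DSC2, the matching desmocollin, was read from only 138 to 223 counts per library. It had 10.3, 8.92 and 10.7 CPM on 0.5 kPa, 9.0, 8.30 and 8.02 CPM on 4 kPa, and 6.94, 8.59 and 8.24 CPM on 25 kPa. Every 0.5 kPa library lay above every 25 kPa library, while 0.5 and 4 kPa overlapped. The log2 difference of 0.5 against 25 kPa was 0.33 ± 0.12 and was not called. DSG2 was far more abundant per length than DSC2, with a ratio of FPKM of 46.8 ± 5.6 on 0.5 kPa, 53.7 ± 3.5 on 4 kPa and 61.1 ± 2.9 on 25 kPa.

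The armadillo proteins bind the cadherin tails. JUP, which encodes plakoglobin, a protein of desmosomes and adherens junctions alike, ranged from 107 to 117 CPM on 0.5 kPa, from 112 to 143 CPM on 4 kPa and from 109 to 123 CPM on 25 kPa. Its groups overlapped throughout, and no comparison was called. PKP2, a plakophilin found in simple epithelia and heart, had 62.7, 70.5 and 61.9 CPM on 0.5 kPa, 78.9, 73.4 and 64.6 CPM on 4 kPa, and 71.2, 73.4 and 75.0 CPM on 25 kPa. The 0.5 kPa libraries lay just below those of 25 kPa, with a log2 difference of -0.17 ± 0.08 that was not called.

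PKP3, the plakophilin present in most epithelial desmosomes, had 54.7, 45.8 and 51.2 CPM on 0.5 kPa, 60.9, 62.9 and 66.0 CPM on 4 kPa, and 70.3, 60.8 and 61.4 CPM on 25 kPa. All 0.5 kPa libraries lay below all libraries of both other gels, which overlapped each other. The log2 difference was -0.34 ± 0.09 for 0.5 against 25 kPa, a level of 0.788 times that on 25 kPa, and -0.32 ± 0.09 for 0.5 against 4 kPa, which was not called. Between 4 and 25 kPa it was -0.02 ± 0.09. The call of PKP3 depended on the setting. It held in 10 of 22 alternatives, and was lost without replicate 2 or 3 of 0.5 kPa, replicate 2 of 4 kPa, or any 1 library of 25 kPa. Over all 22 alternatives the log2 differences ran from -0.40 to -0.27. PKP3 was more abundant than PKP2 per length, with an FPKM ratio of 1.46 ± 0.22 on 0.5 kPa, 1.64 ± 0.24 on 4 kPa and 1.63 ± 0.18 on 25 kPa, and these ratios overlapped between gels.

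The plakins connect the plaque to intermediate filaments. DSP, which encodes desmoplakin, had 504.1, 553 and 587 CPM on 0.5 kPa, 547, 560 and 395 CPM on 4 kPa, and 451, 553 and 491 CPM on 25 kPa. The low value was that of 4 kPa replicate 3, the library that stood apart. That library also gave the lowest 4 kPa value of DSG2, DSC2, PKP2, PPL and EVPL. For JUP, PKP3, PERP and TUFT1 it gave the highest. The groups overlapped, and the log2 difference of 0.5 against 25 kPa was 0.14 ± 0.12. In the transcript table the long form, DSP-201 of 9796 bases, held 69.8% of the DSP FPKM on 0.5 kPa, 69.3% on 4 kPa and 68.4% on 25 kPa. The shorter form, DSP-202 of 7812 bases, held 30.2, 30.7 and 31.5%. Desmoplakin I and II, which differ in the length of the rod, come from such splice forms. The share of the long form in single libraries ran from 68.1 to 71.2% on 0.5 kPa, from 68.0 to 71.6% on 4 kPa and from 67.7 to 69.0% on 25 kPa, so the gels overlapped.

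PPL, which encodes periplakin, had 38.9, 44.0 and 44.6 CPM on 0.5 kPa, 48.6, 51.3 and 40.1 CPM on 4 kPa, and 45.0, 43.3 and 42.8 CPM on 25 kPa, and the groups overlapped. EVPL, which encodes envoplakin, the partner of periplakin in the cornified envelope, was near the detection limit. It had 12, 12 and 20 counts on 0.5 kPa, 27, 21 and 20 counts on 4 kPa, and 24, 15 and 29 counts on 25 kPa. Scaled to CPM, each 0.5 kPa library lay below each 4 kPa library, and 0.5 and 25 kPa overlapped. The closest libraries of 0.5 and 4 kPa, at 0.958 and 0.978 CPM, held 20 counts each, so only the scaling separated them. The log2 difference of 0.5 against 25 kPa was -0.65 with a 95% interval from -1.33 to 0.04, so this depth left a wide range of sizes possible. The FPKM ratio of PPL to EVPL was 60.4 ± 13.3 on 0.5 kPa, 41.3 ± 6.8 on 4 kPa and 40.6 ± 13.4 on 25 kPa.

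PERP, a membrane protein of desmosomes that p53 and p63 can induce, had 212, 198 and 220 CPM on 0.5 kPa, 207, 207 and 247 CPM on 4 kPa, and 242, 222 and 240 CPM on 25 kPa. The 0.5 kPa libraries lay below the 25 kPa libraries by a narrow margin. The log2 difference was -0.16 ± 0.08 and was not called.

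TUFT1 differed most. It had 23.2, 20.9 and 24.5 CPM on 0.5 kPa, 48.9, 45.6 and 52.5 CPM on 4 kPa, and 44.3, 47.5 and 46.3 CPM on 25 kPa. All 0.5 kPa libraries lay below all others by a wide margin, and 4 and 25 kPa overlapped. The level on 0.5 kPa was 0.497 times that on 25 kPa, a log2 difference of -1.01 ± 0.09, and 0.467 times that on 4 kPa, a log2 difference of -1.10 ± 0.09. Between 4 and 25 kPa the log2 difference was 0.09 ± 0.08, with an interval from -0.09 to 0.27. In the gene counts the step thus lay between 0.5 and 4 kPa, which the transcript table described next did not show. The mitochondrial share and the MCF-7 markers, given above, also differed between 0.5 kPa and the other gels, and their part in this result was not tested. Without both replicate 3 libraries of 0.5 and 4 kPa the log2 difference of 0.5 against 25 kPa was -1.05.

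The TUFT1 difference rested on the gene-level tables and was not called from the transcript table. There the counts of 6 named TUFT1 transcripts summed to 938, 1534 and 1952 on 0.5 kPa, 1513, 1474 and 1343 on 4 kPa, and 1771, 1612 and 3648 on 25 kPa. The sums of 0.5 kPa overlapped those of both other gels, whereas all sums of 4 kPa lay below all sums of 25 kPa. Fitted as gene sums, the log2 difference was -0.68 ± 0.35 for 0.5 against 25 kPa, 0.01 ± 0.34 for 0.5 against 4 kPa and -0.70 ± 0.35 for 4 against 25 kPa, and none of these was called. The last of these had the opposite sign to the gene-level value of 0.09. Transcript counts are estimates on another scale, about 3.55 to 3.58 times the gene counts over a whole library. For TUFT1 this ratio ran from 1.25 to 3.82, a 3.06-fold spread between libraries, against spreads of 1.01 to 1.5 for the other 9 genes. The transcript table also holds assembled transcripts with no gene name, which could not be assigned to genes, and whether they took up TUFT1 reads was not tested. Of the named forms TUFT1-202 averaged 4.31 FPKM on 0.5 kPa, 2.92 FPKM on 4 kPa and 4.68 FPKM on 25 kPa, and TUFT1-203 averaged 1.72, 2.36 and 4.77 FPKM. The libraries of both forms overlapped between gels, apart from those of TUFT1-203 on 0.5 and 25 kPa, where every 0.5 kPa library lay lower.

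**Figure D3:**
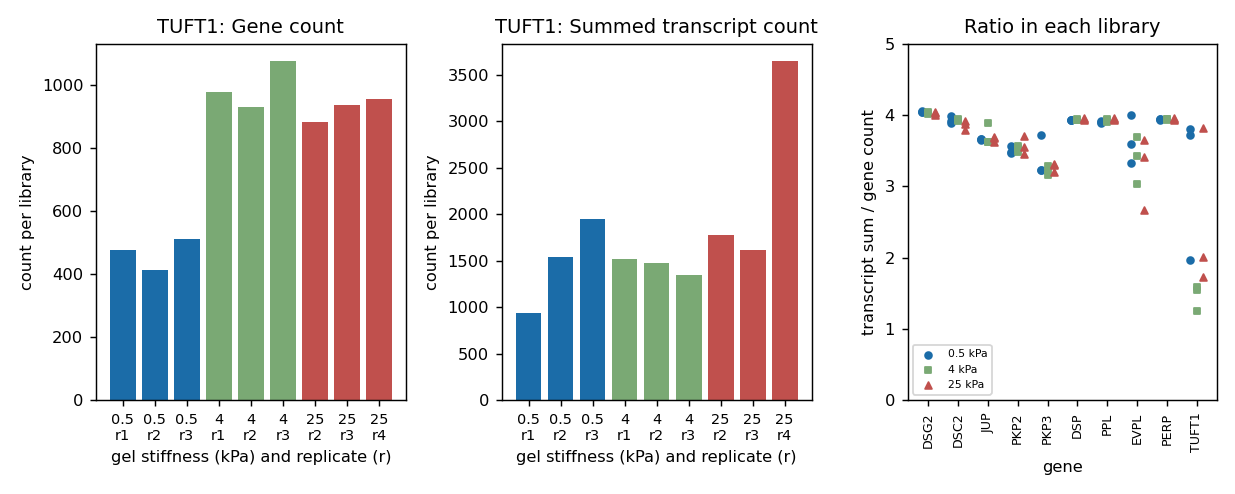
TUFT1 gene counts (left) and summed counts of its named transcripts (middle) in each library, and the ratio of transcript sum to gene count for the 10 genes (right); blue is 0.5 kPa, green 4 kPa and red 25 kPa. Gene counts of 0.5 kPa, 412 to 512, lie below all others, whereas the transcript sums of 0.5 kPa overlap those of both other gels and the TUFT1 ratio runs from 1.25 to 3.82.

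On the map, TUFT1 lies on chromosome 1 from 151540305 to 151583583, plus strand, in the hg38 coordinates of the tables. CGN, the gene of the tight junction protein cingulin, ends 1613 bases upstream on the same strand. CGN fell to 4.78 CPM on 0.5 kPa, against 7.03 CPM on 25 kPa, with an edgeR adjusted p of 0.047. This call was lost without robust shrinkage of the variances, and CGN was not called between 0.5 and 4 kPa. SNX27 and POGZ, the other tested genes nearby, were not called, with log2 differences of 0.16 each. The 2 genes that overlap TUFT1 had at most 10 counts in a library. For the other 9 genes, overlapping genes had at most 16 counts in a library.

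Genes whose pattern over the 9 libraries was close to that of TUFT1 included TRIM29 and KRT80, which encode a TRIM protein and an epithelial keratin. After centring, their log2 CPM differed from those of TUFT1 by a root mean square of 0.145 and 0.150, among 11242 candidates. The deviation of TUFT1 itself was 0.503. TRIM29 averaged 5.49 CPM on 0.5 kPa, 10.7 CPM on 4 kPa and 11.9 CPM on 25 kPa. For PKP3 the nearest were ACTG1, TRAF4 and ZYX, at 0.0508, 0.0545 and 0.0556, beside a deviation of PKP3 itself of 0.180. ACTG1, a cytoplasmic actin, averaged 6985 CPM on 0.5 kPa, 8533 CPM on 4 kPa and 8644 CPM on 25 kPa. For EVPL they were COL4A4, F2RL1 and PRSS12, at 0.246 to 0.255, which is not far below the deviation of EVPL itself, 0.393.

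Around these genes, 10 lists of junction, keratin and related genes held 102 genes with a row, of which 84 were tested. Between 0.5 and 25 kPa 3 rose, 6 fell and 75 were not called on 0.5 kPa, that is 10.7% called beside 6.69% of all genes. Between 0.5 and 4 kPa 2 rose and 4 fell, 7.14% beside 2.05%. Between 4 and 25 kPa 0 of 84 were called in edgeR, with 6 at an unadjusted p under 0.05, and 2 in DESeq2, KRT14 and LIMA1. The lists were drawn up with earlier results known, so these shares are a description. The same holds for the edgeR adjusted p-values printed for single list genes, CGN included. These genes were named because they were called in these same libraries, and their p-values are not independent support.

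The largest differences were in keratins, the filaments that desmosomes anchor. Of 10 tested keratins 4 fell and 6 were not called, with a list median log2 difference of -0.55 for 0.5 against 25 kPa. KRT7, a keratin of simple epithelia, averaged 242 CPM on 0.5 kPa and 671 CPM on 25 kPa, a log2 difference of -1.47 ± 0.10 with an edgeR adjusted p of 6.2e-06. KRT80 averaged 234 CPM on 0.5 kPa and 412 CPM on 25 kPa, with a log2 difference of -0.82 ± 0.07 and an edgeR adjusted p of 3.4e-05. KRT14 and KRT17, keratins of basal and stressed epithelium, had log2 differences of -2.25 and -2.11, with edgeR adjusted p of 3.9e-05 and 0.00024. These 4 keratins also fell on 0.5 kPa against 4 kPa. KRT14 was read at only 1.12 CPM on 0.5 kPa, and KRT14 and KRT17 have near-identical relatives, so that reads may be shared between copies.

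Of the 2 other desmosome genes tested, 1 rose. PKP4, a p120-family protein of cell contacts, averaged 166 CPM on 0.5 kPa and 123 CPM on 25 kPa, a log2 difference of 0.43 ± 0.07 with an edgeR adjusted p of 0.0026. It ran opposite to PKP3. DSC1, PKP1 and CDSN, which belong to stratified epithelium, were below the filter. Hemidesmosomes are junctions that fix keratin to the basement membrane. In the list of hemidesmosome and other plakin genes 2 of 11 rose and 9 were not called. COL17A1 averaged 9.20 CPM on 0.5 kPa and 6.07 CPM on 25 kPa, with an edgeR adjusted p of 0.014. ITGA6, the alpha chain of the hemidesmosomal integrin, averaged 269 CPM on 0.5 kPa and 206 CPM on 25 kPa, with an edgeR adjusted p of 0.017.

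**Figure D4:**
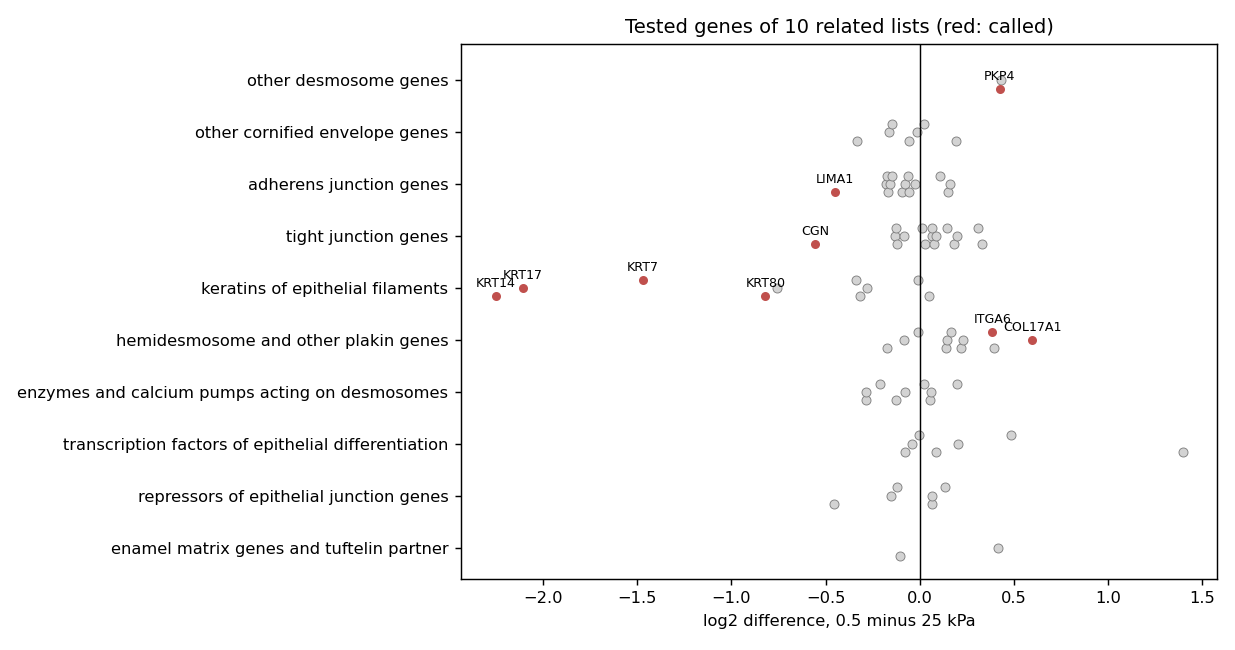
Log2 differences, 0.5 minus 25 kPa, of the 84 tested genes in 10 related lists; each point is a gene, red and named where called, grey otherwise. KRT7, KRT14, KRT17 and KRT80 lie farthest left, and PKP4, ITGA6 and COL17A1 are the called genes to the right of 0.

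Of 14 adherens junction genes 1 fell, LIMA1, which links cadherin complexes to actin. It averaged 104 CPM on 0.5 kPa, against 142 CPM on 25 kPa, with an edgeR adjusted p of 0.0018. Of 16 tight junction genes 1 fell, CGN, described above, which was not called without robust shrinkage of the variances. Among the other cornified envelope genes 7 of 13 were tested and 0 were called in any comparison in edgeR. The most abundant, S100A11 and ANXA1, had log2 differences of -0.01 ± 0.09 and 0.02 ± 0.07 for 0.5 against 25 kPa. IVL, LOR and FLG, products of differentiated skin, were below the filter. Of 9 enzymes and calcium pumps that act on desmosomes 0 were called for 0.5 against 25 kPa, with log2 differences of -0.29 ± 0.09 for ADAM9, a sheddase, and -0.21 ± 0.08 for PRMT1, an arginine methyltransferase.

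Of 7 tested transcription factors of epithelial differentiation 0 were called, with log2 differences of -0.04 ± 0.10 for KLF5 and 0.20 ± 0.13 for EHF. Of 6 repressors that bind E-boxes of junction genes 0 were called, with log2 differences of -0.15 ± 0.07 for TCF3 and -0.12 ± 0.08 for SNAI2. Among enamel matrix genes and the tuftelin partner TFIP11, 2 of 6 were tested and 0 were called. AMTN, which encodes amelotin, had a log2 difference of 0.41 ± 0.18, and TFIP11 had -0.10 ± 0.08. At an unadjusted p under 0.05 for 0.5 against 25 kPa, edgeR gave 1 cornified envelope gene, 3 enzyme or pump genes, 1 transcription factor, 0 repressors and 1 enamel gene, and DESeq2 called none in these lists. Of the related genes called for 0.5 against 25 kPa, 2 of 9, KRT14 and KRT17, were called when transcript counts were summed per gene.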

How the data were processed

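RNA of SKOV-3 cells on 0.5, 4 and 25 kPa gels was sequenced in 3 libraries each. The tools bcl2fastq, HISAT2 2.1.0 and FastQC 0.11.5 and the build hg38 are listed in the submitters' processing notes. For the counting program and its strand setting nothing was given in the sources used here, and the kit is named differently in the labels and in the study's methods. The authors deposited counts per gene and FPKM values per gene, and also FPKM and estimated counts per transcript. Columns were matched by title, in which the labels of the 0.5 kPa libraries read 1_2kPa. The 3 further columns of each table matched no sample and were not used.

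edgeR 4.0.16 in R 4.3.3 kept 16335 genes with filterByExpr, scaled by TMM and fitted all 9 libraries together. Quasi-likelihood p-values were Benjamini-Hochberg adjusted over all tested genes, with calls at 0.05. Variances were shrunk robustly. This setting was chosen after the counts of calls with and without it had been seen, because it gave the counts of calls known from earlier processing of these data. Without it 1068, 319 and 114 genes were called for 0.5 against 25, 0.5 against 4 and 4 against 25 kPa, in place of 1092, 335 and 147, and no call of the 10 genes changed. Standard errors are the log2 difference divided by the root of F. The test was also run on simulated counts, in which no library was made to stand apart, so that run does not vouch for the calls in these data. Log2 CPM used a prior count of 2.

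The members and lists were chosen with earlier results of these data known. Named genes were the 10 members, from each list up to 4 genes called between 0.5 and 25 kPa, by adjusted p (the 2 highest in FPKM where none was called), and the 3 genes nearest in pattern to each of the 3 members with the largest range, of which 1 is not reported here. Other genes named, such as neighbours and markers, lie outside that rule and were chosen after their values were seen. Alternatives used DESeq2 1.42.0 and limma 3.58.1. Promoters came from RefSeq GRCh38.p14 and transcript models from GENCODE v29. Plots used matplotlib 3.10.9 and pandas 2.3.3 under Python 3.11.15.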

Additional observations from a re-analysis of the deposited data

How the results depend on the processing

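TUFT1 was called lower on 0.5 kPa in 21 of 22 alternatives against 25 kPa (log2 -1.05 to -0.86 in these 21) and in 21 of 22 against 4 kPa. The exception in both was the transcript sums, where 0.5 against 25 kPa was -0.68. There 0.5 against 4 kPa was 0.0131 and turned direction, as did 4 against 25 kPa at -0.70. In the transcript sums 0 of the 10 genes were called in either comparison with 0.5 kPa. Of the 10 genes, 1 was called for 0.5 against 25 kPa with upper-quartile scaling and with each of 3 limma fits on log2(FPKM + pseudocount), and 2 for 0.5 against 4 kPa with DESeq2 and with no count filter. Leaving out each library in turn gave 1 to 2 for 0.5 against 25 kPa, 1 to 1 for 0.5 against 4 kPa and 0 to 0 for 4 against 25 kPa. Of the related genes, for 0.5 against 25 kPa, 15 were called with no filter, 2 with transcript sums, 14 without both replicate 3 libraries, and 6 to 15 leaving out 1 library, the most without 4 kPa replicate 3. For 0.5 against 4 kPa these numbers were 10, 1, 11 and 4 to 8. For 4 against 25 kPa 2 were called with DESeq2, 3 with no filter, 5 without both replicate 3 libraries, and 0 to 2 leaving out 1 library. Without robust shrinkage 9 and 5 related genes were called in the comparisons with 0.5 kPa. The cause of these shifts was not tested. The low counts of EVPL and DSC2 limit what could be seen.

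Deviations from the gel mean were correlated between libraries of different gels, from -0.23 to 0.14 for same-numbered libraries. For libraries with unlike numbers the correlations ran from -0.23 to 0.23. With 3 libraries per gel these values cannot decide whether replicate numbers paired the libraries. With the replicate number as a block, 1 of the 10 genes and 5 related genes were called for 0.5 against 25 kPa, among 215 genes in all. The 25 kPa libraries were numbered 2, 3 and 4, and those of the other gels 1, 2 and 3. In that fit 25 kPa replicate 4 was therefore alone in its block and added nothing to the comparison. The lower number of calls cannot be read as an effect of pairing.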
